A study of Vigna radiata with 18 samples.

Results

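Clusters of close open-chromatin sites were described in leaves of mung bean (Vigna radiata). They were taken from the consensus list of ATAC-seq peaks, in which each entry is an interval where the transposase Tn5 cut accessible DNA. Neighbouring peaks were joined into a chain where the gap between the end of one and the start of the next was under 1000 bp. Chains of 3 or more peaks were kept unless any of their peaks was 1000 bp wide or more. The members were thus chosen on gap and width, and both are given as descriptions. The rule found 843 chains with 2675 peaks, 5.32% of the 50238 peaks of the list. Another 66 runs with 229 peaks were long enough but held a peak of 1000 bp or more and were left out.

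The plants were wild type of the cultivar Weilv 9, and the 18 libraries form 6 groups of 3. In T1, seedlings met 100 mM NaCl for 24 h, recovered for 48 h without NaCl and were put back into 100 mM NaCl. In T2, seedlings met 100 mM NaCl directly. Leaves of T1 and T2 were sampled at 0, 6 and 48 h of the last salt bath. The cell type given with the samples is protoplast, while the protocol describes nuclei from frozen leaf. All 18 libraries share 1 peak list with no value per library, so T1 was not compared with T2 and the times were not compared. The depth behind a peak is unknown, and the intervals below cover counting error only.

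In plant nuclei, open sites mark DNA with few or no nucleosomes, often promoters and nearby regulatory elements bound by transcription factors. Nucleosomes commonly stand between neighbouring open sites. Several open sites within a short stretch can be the parts of 1 regulatory region, such as a promoter with elements just upstream, or the starts of neighbouring genes. A peak list on its own does not tell these cases apart. Genes, promoters and sequence of the files' own genome build were not used here, so no chain is assigned to a gene, and the coordinates below, counted from 1, are those of the deposited list, whose build is not given in the sources used here.

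Most chains were as short as the rule allows. A chain held 3 peaks in 719 cases, 85.3% of all chains. It held 4 peaks in 104 cases, 5 peaks in 18 and 6 peaks in 2. Each added peak thus came with a large drop in the number of chains. Runs left out for a wide peak numbered 48 with 3 peaks, 11 with 4, 3 with 5, 3 with 6 and 1 with 8. The longest runs of the whole list were thus mostly outside the set. The rule left out 3 of the 5 runs of 6 peaks and the single run of 8, against 6.26% of the runs of 3. A run with more peaks has more that can be wide, and the longest classes hold few runs.

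**Figure D1:**
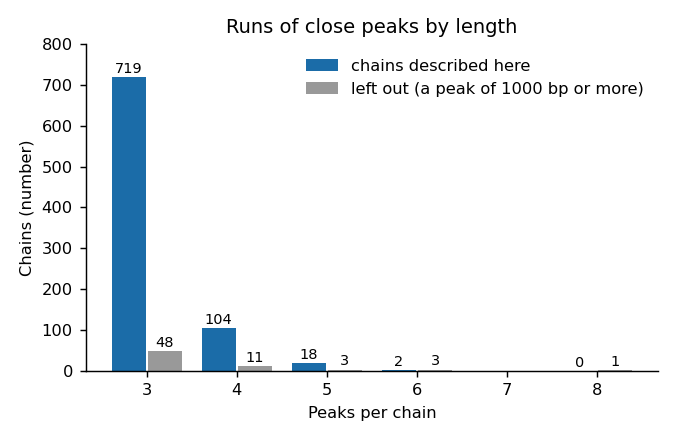
Number of runs (vertical axis) by the number of peaks in the run (horizontal axis), for the chains described here (blue) and for runs left out because a peak was 1000 bp wide or more (grey). The 719 chains of 3 peaks make up most of the set.

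A chain ended its run more often than it went on. Over the whole list, wide peaks included, a gap under 1000 bp was followed by another in 1086 of 6876 cases, 15.8%. After a gap of 1000 bp or more, the next gap was under 1000 bp in 5789 of 43340 cases, 13.4%. The rate after a short gap was above that after a long gap in bins of 1 Mb of each density: 14.7% against 12.1% in bins with up to 94 peaks, 13.3% against 12.6% in bins with more than 94 and up to 116, and 18.04% against 14.7% in bins with more than 116. Both rates count the gaps that made the chains, so they describe the list and were not tested.

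The chains were compact. From first to last base a chain spanned 2155 bp in the median, with quartiles of 1808 and 2554.5 bp and extremes of 920 and 4696 bp. All chains together spanned 1.86 Mb, and their peaks covered 919 kb, 5.10% of the bases under all peaks. On average 50.0% ± 12.1 of a chain's span lay under its peaks (SD, n = 843 chains), from 20.6% to 89.0%. Bases under peaks and bases between them thus took about equal room in a typical chain. The median span grew with the number of peaks, from 2057 bp with 3 peaks and 2811 bp with 4 to 3542.5 bp with 5. The covered share was 50.2%, 47.5% and 44.9% in the same order. Each added peak brings a further gap, and a chain has fewer gaps than peaks, so both trends follow in part from the count.

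Beyond their ends, chains were set apart from the next peak about as far as other peaks were. The gap from a chain to the next peak outside it had a median of 6.85 kb, with quartiles of 3.80 and 12.9 kb. The corresponding gap was 6.84 kb beside pairs and 6.92 kb beside lone peaks. Pairs are here 2 peaks closer than 1000 bp with no further peak within reach, and lone peaks have no neighbour that close; both were limited to peaks under 1000 bp, as the chains were. The next peak lay under 2000 bp away at 11.2% of chain ends, against 11.7% for pairs and 11.6% for lone peaks.

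Gaps inside chains covered the whole range that the rule allows, with more short ones than long ones. Their median was 481 bp, their quartiles were 291 and 741 bp, and they ran from 1 to 998 bp over 1832 gaps. Of these, 934 gaps (51.0%) measured at least 100 and under 500 bp, and 16 gaps (0.873%) were under 100 bp. The fullest class of 100 bp was that of 200 to 300 bp, with 265 gaps (14.5%), and the classes beyond 500 bp held 8.84% to 10.3% each. The gaps inside the 4664 pairs had a median of 497 bp, and their fullest class was also that of 200 to 300 bp, with 13.7%. At the limits of the rule, the largest gaps inside chains were 998, 998 and 997 bp, and the smallest gaps that ended a chain were 1000, 1008 and 1014 bp.

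**Figure D2:**
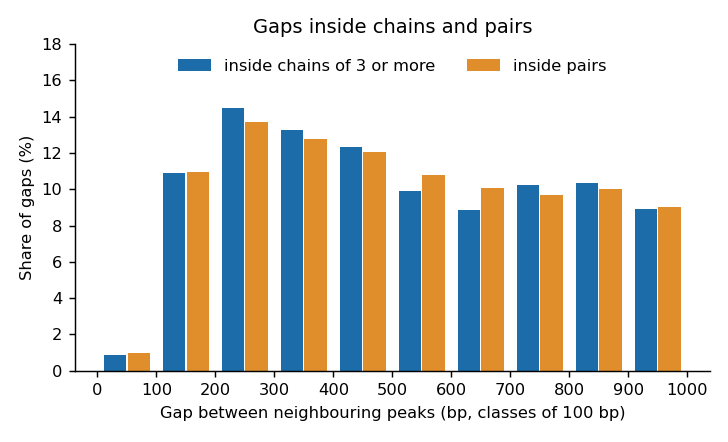
Share of gaps (vertical axis, %) in classes of 100 bp (horizontal axis) inside chains of 3 or more peaks (blue, 1832 gaps) and inside pairs (orange, 4664 gaps). Both peak at 200 to 300 bp, with 14.5% and 13.7%, and both hold under 1% of gaps below 100 bp.

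Peaks inside a chain were not evenly spaced. Measured from centre to centre, neighbours lay 836.5 bp apart in the median, with quartiles of 631 and 1079 bp. In the 719 chains of 3 peaks, the shorter of both gaps had a median of 324 bp and the longer one of 705 bp, and the gaps differed by 260 bp in the median. They were within 100 bp of each other in 154 of these chains (21.4%). The rule set the range of both gaps, and no comparison with unrelated gaps was made, so the uneven spacing does not set chains apart. The length of the first gap told little of the second: Spearman's rho was 0.012 over 719 chains of 3, whose gaps were both cut off at 1000 bp. Neither gap was favoured as the longer one, with the first longer in 346 chains and the second in 373, and their medians were 483 and 492 bp. Both gaps were under 500 bp in 188 chains of 3 (26.1%).

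Peaks in chains were about as wide as other peaks. Members measured 292 bp in the median, their quartiles were 199.5 and 445 bp, and their extremes were 105 and 992 bp. The median was 293 bp in pairs and 284 bp in lone peaks, and the means were 344 bp ± 187 in chains, 345 ± 188 in pairs and 336 ± 184 in lone peaks (SD over 2675, 9328 and 36711 peaks). The medians per chromosome averaged 289 bp ± 28.5 in chains, 292 ± 10.8 in pairs and 283 ± 6.11 in lone peaks (SD, n = 11 chromosomes), so the difference between classes was smaller than the spread of the chain medians over chromosomes. Peaks under 200 bp made up 25.0% of chain members, 24.3% of peaks in pairs and 25.5% of lone peaks. The 3 widest members measured 992, 989 and 981 bp, and the 3 runs left out by the smallest margin had a widest peak of 1001, 1007 and 1011 bp.

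Median width showed no order by place in chains of 3 or 4. In chains of 3, the median was 292 bp at the first place, 291 bp at the middle one and 297 bp at the last. In chains of 4, the medians were 299.5, 292.5, 315.5 and 298.5 bp from first to last place. Inner peaks, with a neighbour on both sides, had a median of 291 bp (989 peaks), and the first and last peaks one of 294 bp (1686 peaks). With gaps limited to under 500 bp the direction turned, and inner peaks were 22 bp wider in the median. Per chromosome the inner median minus the end median was -2.73 bp ± 23.2 (SD, n = 11 chromosomes). Inner peaks were wider on 5 chromosomes and narrower on 6, between -42.5 bp on chromosome 10 and 39.5 bp on chromosome 9. In the 18 chains of 5, the 3 inner medians of 272.5, 257 and 254 bp lay below those of the first peak (333 bp) and the last (290.5 bp), with quartiles at the first place of 253 and 421 bp.

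**Figure D3:**
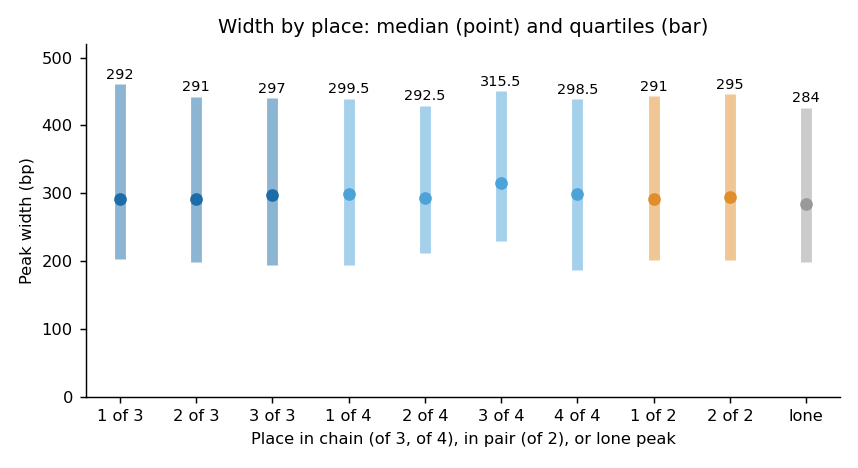
Peak width (vertical axis, bp) by place in chains of 3 and 4 peaks (blue), in pairs (orange) and in lone peaks (grey). Points are medians and bars run between the quartiles. The medians lie between 284 and 315.5 bp, and the quartile bars overlap at every place.

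Single chains of 3 showed the same lack of order. The widest peak was the first in 239 chains, the middle one in 236 and the last in 243. As shares of the 718 chains with 1 widest peak these were 33.3% (95% Wilson interval 29.9% to 36.8%), 32.9% (29.5% to 36.4%) and 33.8% (30.5% to 37.4%). Peaks of a chain nevertheless differed in width, the widest being 2.39 times the narrowest in the median chain of 3, with quartiles of 1.79 and 3.30. No such ratio was taken for 3 peaks outside chains, so it does not set chains apart. The widths of neighbours inside chains had a Spearman's rho of 0.022 over 1832 gaps, close to the 0.011 of neighbours that lay 1000 bp or more apart (43351 gaps). The gap went as little with the summed width of its flanking peaks (rho -0.044 over 1832 gaps). These correlations run across peaks of 1 list, and peaks in the middle of a chain enter more than once.

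A few chains were made of like peaks throughout. All peaks were 300 bp or wider in 82 chains (9.73%), whose median span was 2493.5 bp with 57.7% of it under peaks. All peaks were under 200 bp in 16 chains (1.90%), with 51 peaks, a median span of 1893.5 bp and 27.6% under peaks. Of these 16 chains of narrow peaks, 4 lay on chromosome 11, 3 on chromosome 5, and 2 each on chromosomes 7 and 10, 1 each on chromosomes 1, 2, 3, 6 and 8, and 0 on chromosomes 4 and 9.

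The 2 longest chains held 6 peaks each. The first lay on chromosome 11 at 18015984 to 18019657 and spanned 3674 bp. Its peaks measured 114, 451, 111, 214, 106 and 121 bp, with gaps of 453, 415, 245, 938 and 506 bp, so 1 broad peak stood among 5 narrower ones. The next peaks outside it were 1701 bp before and 1417 bp after. Both gaps were past the limit of 1000 bp but below the lower quartile of gaps beside chains, 3.80 kb. The second lay on chromosome 2 at 22738270 to 22742965 and was the longest of all chains in bases, at 4696 bp. Its widths were 395, 131, 207, 510, 302 and 583 bp and its gaps 922, 465, 126, 744 and 311 bp. The next peaks outside it were 7.87 kb before and 15.2 kb after, against a median of 6.85 kb and an upper quartile of 12.9 kb beside all chains.

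The most compact chains of 5 were made mostly of narrow peaks. They were taken for their short span, which includes the peak widths, so the choice itself favours narrow peaks. Over all 18 chains of 5 the median width was 280 bp. On chromosome 11 at 18107088 to 18109328, peaks of 127, 115, 140, 137 and 139 bp followed each other with gaps of 156, 258, 254 and 915 bp. All 5 widths fell within 25 bp of each other, and 29.4% of the span was under peaks. On chromosome 6 at 29404063 to 29406728, peaks of 398, 325, 176, 157 and 171 bp stood at gaps of 537, 446, 349 and 107 bp. Widths there were larger in the first 2 peaks than in the other 3, and each gap was shorter than the one before. A further chain of chromosome 11, at 19976858 to 19979796, held peaks of 321, 129, 152, 185 and 131 bp with gaps of 797, 278, 805 and 141 bp, so long and short gaps alternated.

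Among the 104 chains of 4, the tightest and the widest-spaced mark the extremes of spacing. The tightest was on chromosome 4 at 7491808 to 7494098, with gaps of 133, 288 and 128 bp between peaks of 369, 319, 246 and 808 bp. Peaks filled 76.0% of its span. The widest-spaced was on chromosome 3 at 19475718 to 19480191, with gaps of 712, 993 and 929 bp between peaks of 767, 113, 385 and 575 bp. Its gaps averaged 878 bp, against 183 bp in the tightest chain, and peaks filled 41.1% of its span.

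**Figure D4:**
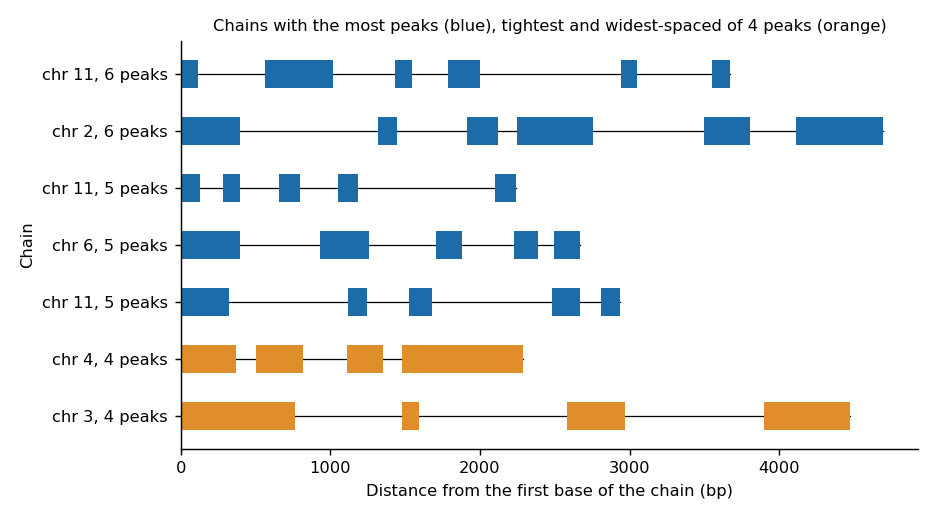
Peaks (boxes) of the 5 chains with the most peaks (blue) and of the tightest and widest-spaced chain of 4 (orange), to scale as distance from the first base of the chain (horizontal axis, bp). Of these 5, the 3 chains from chromosome 11 carry mostly narrow peaks, while the chain of 4 on chromosome 4 has gaps of 288 bp or less. Ties in the number of peaks went to the shorter span, which favours narrow peaks.

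The 3 long chains of chromosome 11 all lay between 18 and 20 Mb of that chromosome. This stretch was singled out after its values had been seen. It held 7 chains with 28 members, whose median width was 156 bp, against 263 bp for the other 211 members of the chromosome. The 131 lone peaks of the same stretch had a median of 276 bp, against 280 bp for lone peaks elsewhere on chromosome 11. The 3 long chains, by which the stretch was picked, supplied 16 of the 28 members, and the other 12 had a median width of 235.5 bp. Runs with a wide peak also lay there: 7 of the 12 left out on chromosome 11 fell in the same stretch, between 18046324 and 18405349.

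Chains were spread over all chromosomes, at unequal rates. There were 1.69 chains per Mb of chromosome span, taken from the first base to the end of the last peak, 499 Mb in all. Chromosome 4 had the highest rate, 2.27 per Mb, with 64 chains. Chromosome 9 had the lowest, 0.965 per Mb, with 35 chains. The other 9 chromosomes lay between 1.32 per Mb on chromosome 5 and 2.19 per Mb on chromosome 2. Chromosome 8, the longest, held the most chains, 145, at 1.93 per Mb. Over the 11 chromosomes the rate was 1.70 ± 0.39 per Mb (SD), relatively more variable than the rate of all peaks, 100 ± 11.7 per Mb. The chain rates rest on 35 to 145 chains per chromosome, against 2973 to 8450 peaks, so counting error weighs more in them.

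Chromosomes with like numbers of peaks per Mb differed in the share of peaks that lay in chains. On chromosome 9, 110 of 3663 peaks were in chains, 3.00%. On chromosome 4, 205 of 2973 were, 6.90%, and on chromosome 2, 244 of 3558, 6.86%. These 3 chromosomes had 101, 105 and 102 peaks per Mb. Chromosome 1, with 78.9 peaks per Mb, had 5.76% of its peaks in chains, and chromosome 5, with 76.8, had 5.44%. Chromosome 9 was the lowest by some distance, since the next, chromosome 3, stood at 4.77%. Its share of peaks in pairs, 17.7%, was within the 17.6% to 19.6% of the other chromosomes, where it ranked second lowest, above chromosome 10. Members come in groups of at least 3 and are not independent, so no interval was put on these shares. Chromosome 9 also had the longest median gap inside chains, 538 bp, and the smallest median member width, 244 bp, against 452 to 529 bp and 251 to 337 bp on the others.

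Chains were denser at chromosome ends than in chromosome centres, more so than peaks as a whole. The outer 40% of the spans (20% at each end) held 441 chains, 2.21 per Mb, and the central 20% held 110, 1.10 per Mb. The ratio was 2.00 for chains and 1.26 for all peaks. A chain needs several close peaks, so chains and the share of peaks in them can rise faster than peak density itself. How much of the contrast the denser peaks of the outer parts would give on their own was not tested. Of the peaks in the outer parts 6.29% were in chains, against 4.01% of the peaks in the centre. The outer share averaged 6.23% ± 0.84 and the central share 4.29% ± 1.69 (SD, n = 11 chromosomes). It was higher outside on 9 chromosomes, by up to 3.71 percentage points on chromosome 6, and lower outside on chromosome 5 (6.27% outside, 6.98% in the centre) and on chromosome 11 (6.79% and 7.26%). These central shares rest on few chains, 4 to 17 per chromosome, and the difference was not tested.

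**Figure D5:**
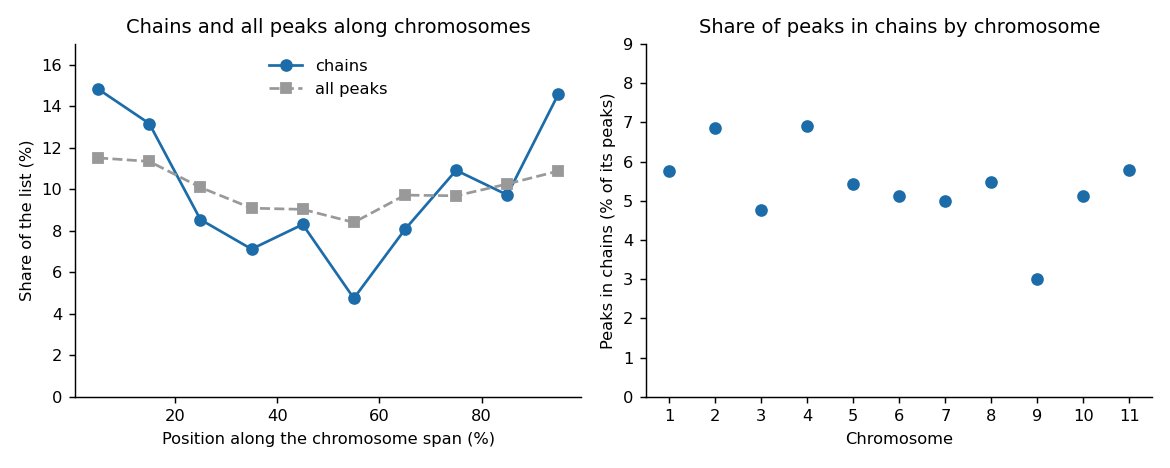
Left, share of all chains (blue) and of all peaks (grey) in 10 equal parts of the chromosome span (horizontal axis, %), summed over 11 chromosomes. Right, percent of each chromosome's peaks that are members of chains. The first and last 10% of the span hold 14.8% and 14.6% of chains, against 11.5% and 10.9% of peaks. The part from 80% to 90% holds 9.73% of chains and 10.3% of peaks. Chromosome 9 stands lowest at 3.00%.

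The densest bins held the largest share of members, but the share did not rise steadily with density. Bins of 1 Mb with more than 116 peaks held 429 of the 843 chains, and 6.55% of their peaks were members, against 4.32% in bins of middle density and 4.67% in bins with up to 94 peaks. In the densest bins, 7.48% of peaks in the outer parts were in chains (885 of 11830), against 4.16% in the centre (156 of 3754). In bins of middle density the shares were 5.13% outside and 3.47% in the centre. In the sparsest bins they were 4.60% and 4.50%. The contrast between ends and centres was therefore largest in dense bins and nearly absent in sparse ones, where the central part had 93 members. The last, shorter bin of each chromosome lies in the outer parts and could count as sparse for its length alone. Neither density nor position was tested as the source of the other.

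Over all chromosomes together, the median width of members, like that of lone peaks, was slightly larger at chromosome ends. It was 300 bp in the outer parts and 276 bp in the centre, beside 294 and 270 bp for lone peaks. Per chromosome the difference was 12.7 bp ± 38.8 for members, above 0 on 7 of 11 chromosomes, and 25.4 bp ± 11.0 for lone peaks, above 0 on 11 of 11 (SD, n = 11 chromosomes). For members the spread over chromosomes exceeded the difference. The median gap inside chains was 498 bp in the outer parts, 456 bp in the parts between and 504 bp in the centre. Chains of 4 or more peaks made up 13.8% of the chains in the outer parts, 16.8% between and 12.7% in the centre.

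Chains were many in some megabases and missing from others. Of 505 bins of 1 Mb, 130 held 0 chains, 144 held 1, 102 held 2 and 129 held 3 or more. The 29 bins with 5 or more chains, 5.74% of bins, held 168 chains, 19.9% of the set. Whether these counts are more uneven than those of randomly placed chains was not tested. The nearest other chain was 155 kb away in the median, and within 100 kb for 308 chains (36.5%) and within 10 kb for 48 (5.69%). The longest stretch between neighbouring chains ran for 5.26 Mb on chromosome 8, from 36024749 to 41281721, and held 429 peaks outside the set.

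The 3 bins with the most members differed in the median gap inside their chains. The richest was chromosome 8 at 73000001 to 74000000, near the end of the span, with 11 chains and 34 members, 22.2% of its 153 peaks. The second was chromosome 4 at 7000001 to 8000000, with 9 chains and 32 members, 19.8% of 162 peaks, beside 5 runs left out for a wide peak. The third was chromosome 6 at 43000001 to 44000000, with 8 chains and 26 members, 15.9% of 164 peaks. The median gap inside chains was 696 bp in the bin of chromosome 8, 299 bp in that of chromosome 4 and 465 bp in that of chromosome 6. Each of these medians rests on few gaps, gaps over all chains had an SD of 259 bp, and the differences were not tested. The bin of chromosome 4 also holds the tightest chain of 4, described above. The bins of chromosomes 8 and 6 lay at 97.8% and 94.5% of their spans, and that of chromosome 4 at 26.6%.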

How the data were processed

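ATAC-seq was measured in 18 libraries from leaves, 6 groups of 3 per the labels. The deposited list, in no unit but base positions, has 3 columns (chromosome, start, end) and 0 columns of a library. MACS3 3.0.3, a peak caller, bedtools 2.28.0, fastp 1.0.1 and SAMtools 1.22.1 are among the tools in the submitters' processing notes. What each did, the peak threshold, which libraries were merged, how duplicate and multiply mapped reads were treated, and the build: not given in the sources used here. Joining close intervals when libraries are merged would lower the number of chains and widen peaks, and depth per library is unknown.

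Widths, gaps, chains and positions were computed in Python 3.11.15 (pandas 2.3.3, numpy 2.4.6; intervals with SciPy 1.17.1), and the chain search was tested on simulated data. Bins of 1 Mb were placed by peak centre, and their density classes split the bins that hold peaks into 3 of about equal number. The classes use the count of peaks per bin, and the last bin of each chromosome is shorter than 1 Mb. No test was run, since peaks and chromosomes of 1 list are not biological replicates and the rule used gap and width. T1 and T2, and the times, were not compared for want of values by library. The members and summaries were chosen with earlier results of these data known. Chains named are the 5 with the most peaks (ties by shorter span), the tightest and widest-spaced of the longest class with at least 20 chains, and the 3 richest bins; any other stretch or chain named was chosen after its values were seen. A gene table of another assembly (VC1973A) was not joined: 17572 peaks, 928 of them members, lay past its last gene on 11 of 11 chromosomes.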

Additional observations from a re-analysis of the deposited data

How the results depend on the processing

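The set depends on the limits of the rule. With gaps under 500 bp it held 249 chains and 769 peaks, under 1500 bp 1453 and 4708, and under 2000 bp 2030 and 6688. With 4 or more peaks required there were 124 chains and 518 peaks, and without the narrowest 25% of all peaks 375 and 1178. The median gap inside chains moved by construction to 295.5, 663 and 818 bp at limits of 500, 1500 and 2000 bp. It was 460.5 bp in chains of 4 or more and 511 bp with peaks under 150 bp apart merged. The median width was 350.5 bp without the narrowest 25%. Inner peaks were 22 bp wider than end peaks with gaps under 500 bp, against 3 bp narrower here (-3), and the cause was not tested. The ratio of outer to central chain density ranged from 1.79 to 2.27 under these settings and with wide peaks kept, and from 1.90 to 2.18 with any 1 chromosome left out. Without any 1 chromosome there were 698 to 808 chains, a median gap of 476.5 to 486 bp, a median width of 286.5 to 296 bp and an inner minus end difference of -6 to 6 bp. No paired analysis was possible because no column of the deposited list belongs to a library, and no replicate could be left out for the same reason. Depth is unknown, and with it the precision of each peak's edges.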

Other observations

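The 66 runs left out held 78 peaks of 1000 bp or more. In the 48 runs of 3 among them, a wide peak stood at the first place in 19, at the middle place in 17 and at the last in 14, so no place stood out among the wide peaks either. Over their whole length, 32.0% of the 97 inner peaks and 35.6% of the 132 end peaks were wide. Their other 151 peaks had a median width of 286 bp, and the median gap in these runs was 427 bp, against 481 bp in the chains described above. Peaks of 1000 bp or more made up 2.69% of the 2904 peaks in all runs of 3 or more, against 2.27% of peaks in pairs and 2.29% of lone peaks. The run of 8 peaks lay on chromosome 11 at 18065853 to 18075561, spanned 9709 bp and had peaks of 142 to 3304 bp, the widest at the third place.

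The terminal 1 Mb at the 22 chromosome ends held 56 chains with 175 members, 7.60% of the peaks there, against 5.22% of peaks elsewhere, and 4 of the 22 ends held 0 chains. The chains closest to each other, picked for that value, lay on chromosome 2, at 6437662 to 6439446 and 6441078 to 6442348, with 3 peaks each and 1631 bp between them.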
